A study of Mus musculus with 12 samples.

Results

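Hox genes encode the homeodomain transcription factors that give cells their position along the head-to-tail axis. They were taken as every gene whose annotated symbol is Hoxa, Hoxb, Hoxc or Hoxd followed by a number, and each was read from its brightest probe set that names 1 gene. This gave 33 genes out of 18194 measured, and 33 of the 39 mouse Hox genes listed by RefSeq. The other 6 were not analysed here.

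Total RNA of mouse spinal cord was hybridised to 12 one-colour expression arrays, 3 in each of 4 groups, to ask how activating Wnt signalling in the oligodendrocyte lineage alters myelination. The groups were Olig2cre/DA-Cat and wild-type cords at day 15, and Olig2cre/DA-Cat and wild-type cords at day 4. Olig2cre expresses Cre recombinase in cells that make the transcription factor Olig2, which include the progenitors of motor neurons and the oligodendrocyte lineage, and DA-Cat is β-catenin in a dominant-active form, which switches on canonical Wnt signalling. The controls were wild-type littermates, so Cre and DA-Cat were compared together and neither was tested by itself. The labels call the replicates biological and do not give the number of animals in a sample, so p-values measure the spread between these samples. Day is labelled a developmental stage, while the accompanying protocol is about adults with lysolecithin lesions, collected unlesioned or 14 days later, so the labels do not settle what the days are counted from. The labels name ventrolateral white matter as the source of the RNA and do not give the cord levels sampled. A list of 16 neuronal genes averaged between 11.80 and 12.09 log2 on all 12 arrays, so RNA of neurons was present.

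All levels below are deposited log2 signals, and a difference of 1 is a doubling. Array medians lay between 6.14 and 6.19, and arrays of 1 group correlated at 0.994 to 0.997 over all probe sets. Axin2, a feedback target of β-catenin, was higher in Olig2cre/DA-Cat by 0.51 ± 0.08 log2 at day 15 (SE, adjusted p = 0.0057) and by 1.05 ± 0.08 at day 4 (adjusted p = 1.16e-05). Ctnnb1, which encodes β-catenin, gave differences of -0.07 at day 15 (adjusted p = 0.693) and -0.05 at day 4 (adjusted p = 0.696). A Hox gene was called changed where the adjusted p of limma's moderated test, corrected by Benjamini-Hochberg over all 18194 genes, was below 0.05. The genes were tested on 3 arrays per group, and these few arrays limit the precision.

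Mammalian Hox genes lie in 4 clusters, and their order along a cluster follows the order of their expression limits along the body. Genes at the same place in different clusters form a paralogue group, numbered 1 to 13 from the head end. Groups 1 to 3 act mainly in the hindbrain, groups 4 to 8 in the neck and forelimb segments, group 9 in the thorax, and groups 10 to 13 in the lumbar and sacral segments. In the spinal cord they set the identity of motor neuron columns and pools, and retinoic acid, Wnt, fibroblast growth factor and Gdf11 signals establish the pattern, which Polycomb and Trithorax complexes then maintain. The measured members were 9 genes of the HoxA cluster on chromosome 6, 9 of HoxB on chromosome 11, 7 of HoxC on chromosome 15 and 8 of HoxD on chromosome 2.

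The promoters of Hoxd1, Hoxd8 and Hoxd10 are shown because these 3 genes of the same cluster differed in what they did: Hoxd1 and Hoxd8 were higher at day 15, Hoxd10 was lower, and Hoxd1 was lower in Olig2cre/DA-Cat on both days. Each sequence is the 250 bases before the annotated start, 5′ to 3′ on the plus strand of GRCm38.p6, from RefSeq. Capitals mark CTTTG, the core bound by the TCF/LEF partners of β-catenin. It was sought on both strands, and it overlaps the Sox motif CTTTGT.
Hoxd1 (chr2:74762730-74762979): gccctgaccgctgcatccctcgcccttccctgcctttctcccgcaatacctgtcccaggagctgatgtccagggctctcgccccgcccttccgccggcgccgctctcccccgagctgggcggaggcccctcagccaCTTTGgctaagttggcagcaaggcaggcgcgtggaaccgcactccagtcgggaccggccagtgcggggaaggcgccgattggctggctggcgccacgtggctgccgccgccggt
Hoxd8 (chr2:74704365-74704614): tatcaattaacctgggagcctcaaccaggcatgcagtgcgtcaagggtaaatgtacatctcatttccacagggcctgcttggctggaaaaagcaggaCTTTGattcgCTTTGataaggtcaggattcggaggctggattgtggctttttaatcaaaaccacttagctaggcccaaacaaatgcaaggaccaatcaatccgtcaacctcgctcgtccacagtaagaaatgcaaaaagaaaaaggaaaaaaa
Hoxd10 (chr2:74691641-74691890): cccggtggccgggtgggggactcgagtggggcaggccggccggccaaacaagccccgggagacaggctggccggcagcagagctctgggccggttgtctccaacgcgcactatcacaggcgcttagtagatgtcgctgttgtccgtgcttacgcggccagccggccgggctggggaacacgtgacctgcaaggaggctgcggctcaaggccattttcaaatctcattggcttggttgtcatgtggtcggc

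The Hoxd1 window held 1 CTTTG, the Hoxd8 window held 2 and the Hoxd10 window held 0. CTTTG was present in 48.6% of 32817 mouse promoter windows of the same length and in 13 of the 21 windows that belong to 19 Hox genes. AGGTCA, the half-site of retinoic acid receptors, occurred once each in the Hoxd8 and Hoxd10 windows, in 14.0% of all windows and in 5 of the 21 Hox windows. TTTATG, the core bound by Cdx factors, was in none of these 3 windows, in 10.8% of all windows and in 3 of the 21 Hox windows. GC content was 71.6% in the Hoxd1 window, 44.4% in Hoxd8 and 65.6% in Hoxd10, against a median of 52.4% over all windows. These matches describe letters in a window and say nothing about binding.

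Most Hox genes gave a clear signal in these cords. In 25 of the 33, the mean signal was 5 log2 or more in every group, a level used here as the edge of background and chosen after earlier values were known. For comparison, the median of 15 probe sets for bacterial controls was 3.09. Hoxb1, Hoxb7, Hoxd12, Hoxa13, Hoxb13 and Hoxd13 lay under that level in all 4 groups, and Hoxd1 and Hoxa4 did so only in Olig2cre/DA-Cat at day 4. Signals of different probe sets cannot be ranked against each other, so each gene is compared only with itself.

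**Figure D1:**
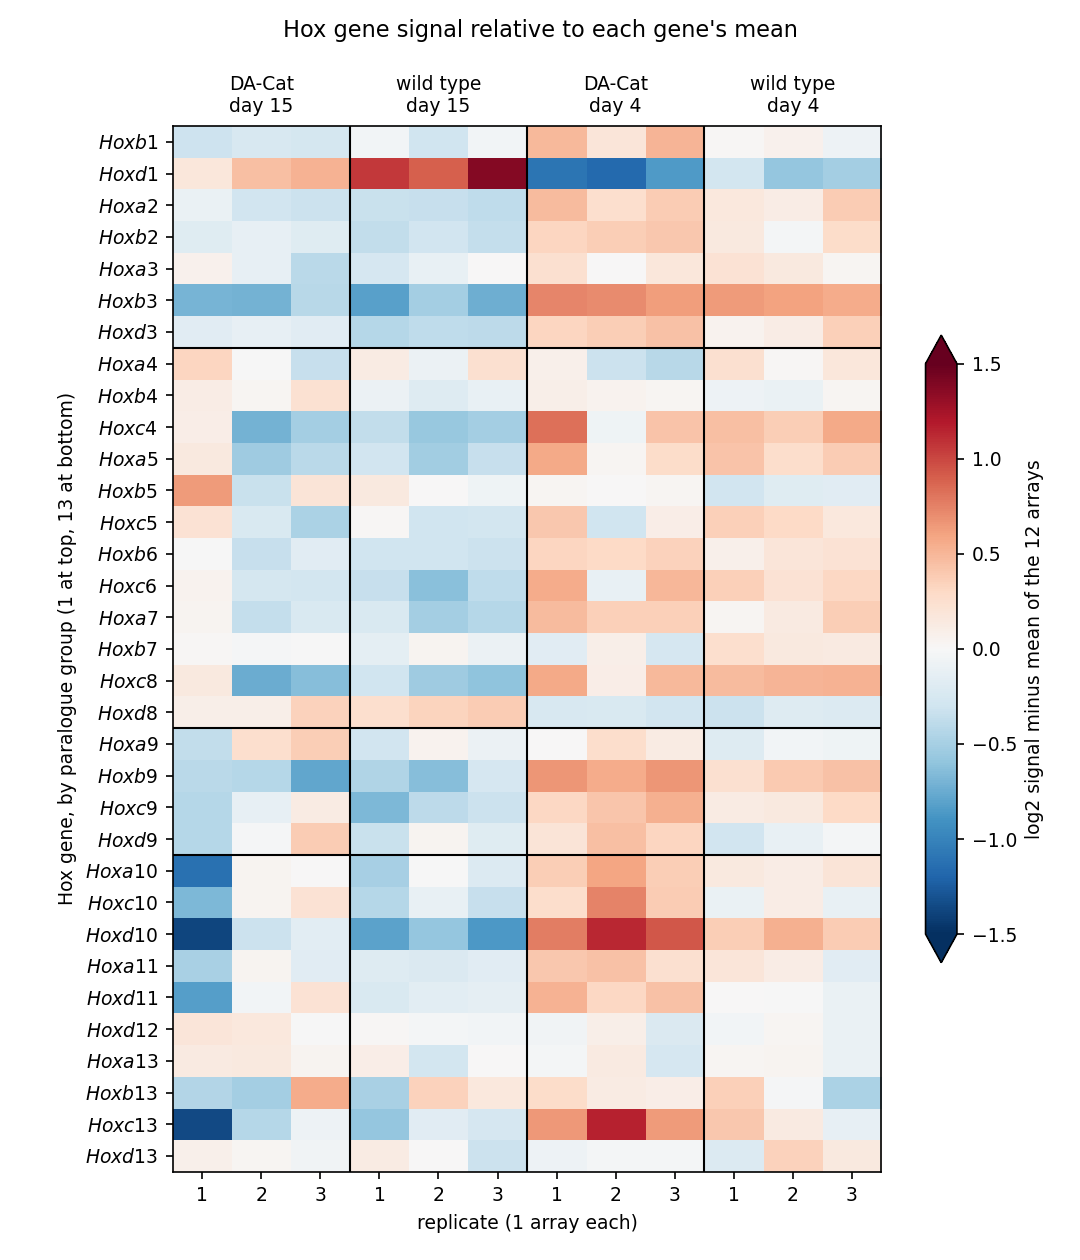
Each of the 33 Hox genes (rows, paralogue group 1 at the top) on each of the 12 arrays (columns, 3 replicates in 4 groups), coloured by log2 signal minus that gene's mean over the arrays. Most rows are blue in the 6 day 15 arrays and red in the 6 day 4 arrays, Hoxd1 and Hoxd8 run the other way, and replicate 1 of Olig2cre/DA-Cat at day 15 stands apart in the lowest block.

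Between the days, more Hox genes were called lower at day 15 than higher. In Olig2cre/DA-Cat cords 19 of the 33 were lower at day 15 than at day 4, 2 were higher and 12 were not called, with a median difference of -0.52 log2 against 0.00 over all genes. In wild-type cords 14 were lower, 2 were higher and 17 were not called, with a median of -0.27 against -0.02 over all genes. Of all genes tested, 26.3% were called lower and 21.8% higher in Olig2cre/DA-Cat, and 23.6% lower and 21.3% higher in wild type. The same 13 Hox genes were called lower in both genotypes (Hoxa2, Hoxb2, Hoxb3, Hoxd3, Hoxc4, Hoxa5, Hoxb6, Hoxc6, Hoxa7, Hoxc8, Hoxb9, Hoxc9 and Hoxd10), and the 2 called higher were Hoxd1 and Hoxd8 in both. In bulk tissue, fewer cells that make a gene and less of its RNA per cell cannot be told apart.

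**Figure D2:**
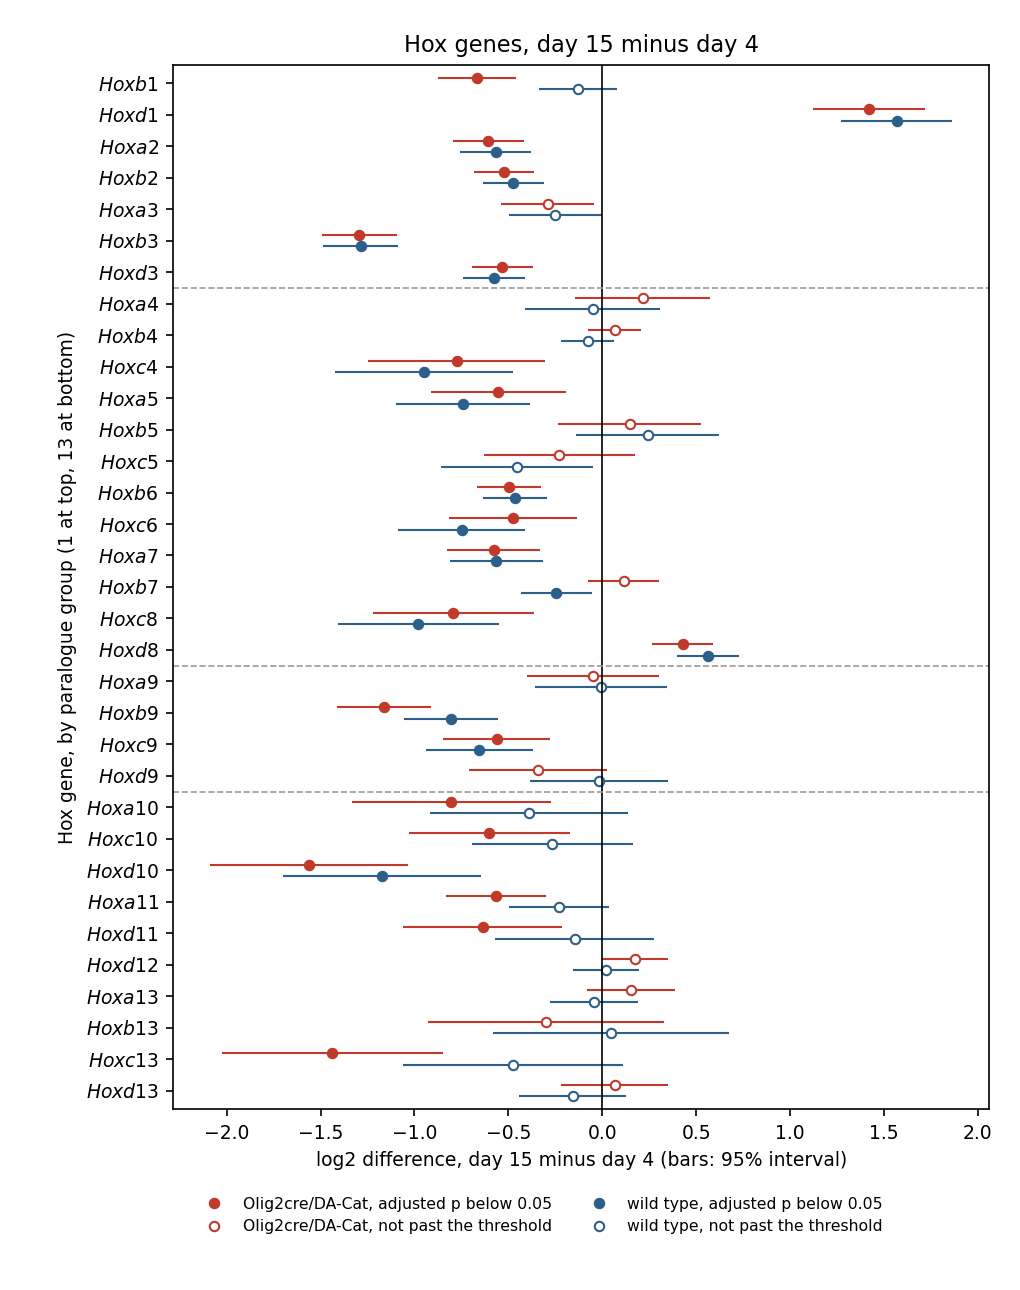
Difference in log2 signal between day 15 and day 4 for each Hox gene, with its 95% interval, in Olig2cre/DA-Cat (red) and wild type (blue). Filled points passed an adjusted p of 0.05, and dashed lines divide paralogue groups 1 to 3, 4 to 8, 9 and 10 to 13. Hoxd1 and Hoxd8 are the only filled points right of 0 (1.42 and 0.43 in Olig2cre/DA-Cat, 1.57 and 0.56 in wild type).

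In paralogue groups 1 to 3, Hoxb3 gave the lowest difference. Hoxb3, which helps to pattern the hindbrain, read 8.09, 8.08 and 8.37 log2 in Olig2cre/DA-Cat at day 15 and 9.51, 9.49 and 9.41 at day 4. Wild-type cords read 7.97, 8.28 and 8.06 at day 15 and 9.43, 9.39 and 9.35 at day 4. The days did not overlap in either genotype, and the fall was 1.29 ± 0.09 log2 in both (2.45-fold in Olig2cre/DA-Cat, adjusted p = 2.4e-07, and 2.44-fold in wild type, adjusted p = 3.36e-07). A second Hoxb3 probe set fell by 0.91 in Olig2cre/DA-Cat and by 0.81 in wild type.

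Hoxa2, which specifies the second branchial arch, fell by 0.61 ± 0.09 log2 in Olig2cre/DA-Cat and by 0.57 ± 0.09 in wild type (adjusted p = 8.9e-05 and 0.000174). Hoxb2, a hindbrain gene, fell by 0.52 ± 0.07 in Olig2cre/DA-Cat and by 0.47 ± 0.07 in wild type (adjusted p = 7.77e-05 and 0.0002). Hoxd3, needed for the first cervical vertebrae, fell by 0.53 ± 0.07 in Olig2cre/DA-Cat and by 0.58 ± 0.07 in wild type (adjusted p = 7.53e-05 and 4.52e-05). These 3 genes moved by nearly the same amount in both genotypes, within their standard errors. Hoxa3 was not called in its brightest probe set (-0.29 in Olig2cre/DA-Cat and -0.25 in wild type, adjusted p = 0.0515 and 0.0946). Its other 3 probe sets gave -0.64, -0.94 and -0.05 in Olig2cre/DA-Cat and -0.46, -0.99 and 0.11 in wild type, so the probe sets of Hoxa3 did not give 1 answer. Hoxb1, which specifies a hindbrain segment and the facial motor neurons that arise in it, was near background in all groups and was called lower at day 15 in Olig2cre/DA-Cat (-0.67 ± 0.10, adjusted p = 8.69e-05) but not in wild type (-0.13 ± 0.10, adjusted p = 0.309).

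Hoxd1 was the exception in the anterior set. In the mouse it is known for shaping the circuits of pain-sensing neurons. It read 5.68, 5.96 and 6.03 log2 in Olig2cre/DA-Cat at day 15 and 4.41, 4.34 and 4.66 at day 4, and in wild type 6.56, 6.41 and 6.89 at day 15 and 5.23, 4.93 and 5.001 at day 4. Every day 15 array was above every day 4 array. The rise was 1.42 ± 0.14 log2 (2.68-fold) in Olig2cre/DA-Cat and 1.57 ± 0.14 (2.96-fold) in wild type (adjusted p = 2.95e-06 and 1.6e-06). Its day 4 level in Olig2cre/DA-Cat was under the background edge, which can make the fold there too small.

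**Figure D3:**
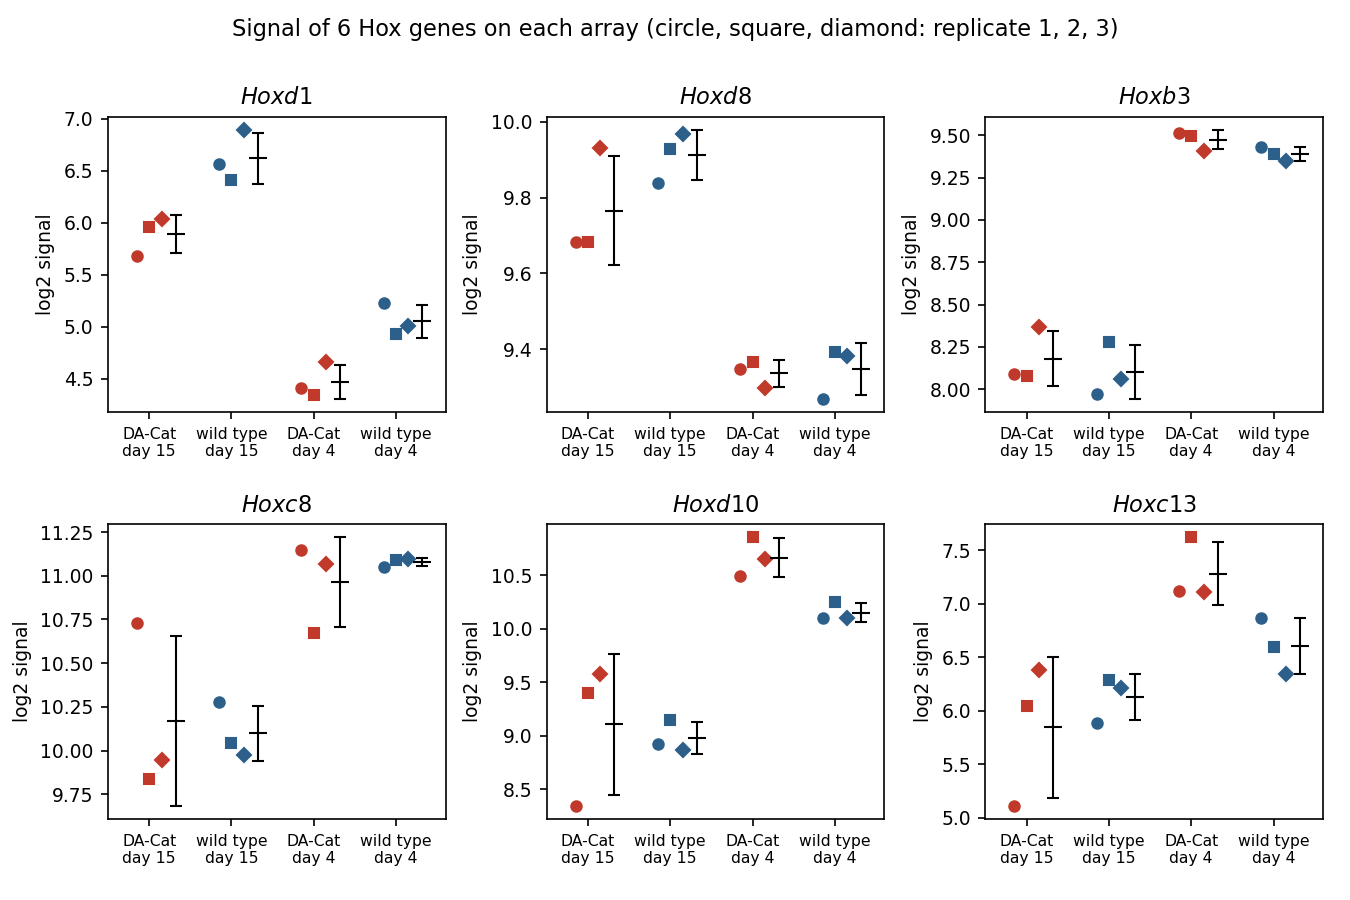
Log2 signal of 6 Hox genes on each array, with the group mean and SD (bar, n = 3), for Olig2cre/DA-Cat (red) and wild type (blue) at each day, and a separate axis for each gene that does not start at 0. Hoxd1 and Hoxd8 are higher at day 15, Hoxb3 and Hoxd10 are lower, and in Hoxc8, Hoxd10 and Hoxc13 replicate 1 of Olig2cre/DA-Cat at day 15 (10.73, 8.35 and 5.11) lies away from replicates 2 and 3.

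In paralogue groups 4 to 8, 6 of 12 genes were lower at day 15 in Olig2cre/DA-Cat and 7 of 12 in wild type, with 1 higher in each. Of all genes, 26.3% were lower and 21.8% higher in Olig2cre/DA-Cat, and 23.6% and 21.3% in wild type. Hoxc8, which patterns motor pools of the caudal forelimb segments, read 10.73, 9.84 and 9.94 log2 in Olig2cre/DA-Cat at day 15 and 11.15, 10.67 and 11.07 at day 4. In wild type it read 10.28, 10.05 and 9.98 at day 15 and 11.05, 11.09 and 11.09 at day 4. The wild-type days were well apart, while 1 day 15 array of Olig2cre/DA-Cat came in just above the lowest day 4 array. The differences were -0.79 ± 0.20 in Olig2cre/DA-Cat and -0.98 ± 0.20 in wild type (adjusted p = 0.00483 and 0.00128).

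Hoxc4, of the cervical segments, fell by 0.77 ± 0.22 log2 in Olig2cre/DA-Cat and by 0.95 ± 0.22 in wild type (adjusted p = 0.0101 and 0.00315). Hoxa5, needed for the phrenic motor neurons that drive breathing, fell by 0.55 ± 0.16 in Olig2cre/DA-Cat and by 0.74 ± 0.16 in wild type (adjusted p = 0.0141 and 0.00264), while its second probe set gave -0.25 and -0.64. Hoxc6, which acts in the motor column of the forelimb, fell by 0.47 ± 0.16 in Olig2cre/DA-Cat and by 0.75 ± 0.16 in wild type (adjusted p = 0.0237 and 0.00168). Its other probe sets gave -0.49 and -0.15 in Olig2cre/DA-Cat and -0.74 and -0.28 in wild type. These 3 genes had the weakest day calls in Olig2cre/DA-Cat of the 13 that passed in both genotypes. Without replicate 2 of Olig2cre/DA-Cat at day 15, neither Hoxa5 (-0.42, adjusted p = 0.0634) nor Hoxc6 (-0.43, adjusted p = 0.0735) was called in that genotype, and the same 2 calls were lost without its day 15 replicate 3 or its day 4 replicate 1. Without its day 4 replicate 3, Hoxc6 was not called (adjusted p = 0.097). With the Y-linked gene Eif2s3y as a covariate for sex, Hoxc4, Hoxa5 and Hoxc6 were not called in Olig2cre/DA-Cat (adjusted p between 0.0632 and 0.0938).

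Hoxb6 fell by 0.50 ± 0.08 log2 in Olig2cre/DA-Cat and by 0.47 ± 0.08 in wild type (adjusted p = 0.000187 and 0.000364). Hoxa7 fell by 0.58 ± 0.11 in Olig2cre/DA-Cat and by 0.56 ± 0.11 in wild type (adjusted p = 0.00104 and 0.00137). Both take part in patterning the vertebrae of the upper trunk. Hoxb7 was near background in all groups, and its fall of 0.24 ± 0.09 in wild type (adjusted p = 0.0367) was called in 12 of 19 alternative fits. The call was lost without wild-type replicates 1 or 3 at day 15 or replicates 1 or 2 at day 4 (adjusted p between 0.0635 and 0.127). It was also lost after quantile normalisation (adjusted p = 0.0618), with a variance trend and robust fit (0.0514) and with array weights (0.0558).

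Hoxd8 rose between the days in both genotypes, the only gene of this set called higher. It read 9.68, 9.68 and 9.93 log2 in Olig2cre/DA-Cat at day 15 and 9.35, 9.37 and 9.30 at day 4. Wild-type cords read 9.84, 9.93 and 9.97 at day 15 and 9.27, 9.39 and 9.38 at day 4. No day 15 array overlapped the day 4 arrays of either genotype. The rise was 0.43 ± 0.07 in Olig2cre/DA-Cat and 0.56 ± 0.07 in wild type (adjusted p = 0.000406 and 5.37e-05), and its second probe set gave 0.57 and 0.74. The other 4 genes of this set, Hoxa4, Hoxb4, Hoxb5 and Hoxc5, were called in neither genotype, with differences between -0.45 and 0.24. For Hoxc5 these were -0.23 in Olig2cre/DA-Cat and -0.45 in wild type, and its other probe sets gave -0.48 and -0.15 in Olig2cre/DA-Cat and -0.86 and -0.54 in wild type.

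In paralogue group 9, Hoxb9 and Hoxc9 fell in both genotypes and Hoxa9 and Hoxd9 were called in neither. Hoxb9 read 8.57, 8.55 and 8.19 log2 in Olig2cre/DA-Cat at day 15 and 9.64, 9.54 and 9.63 at day 4. In wild type it read 8.52, 8.34 and 8.72 at day 15 and 9.21, 9.37 and 9.42 at day 4. The days were apart in both genotypes, by -1.16 ± 0.11 in Olig2cre/DA-Cat and by -0.81 ± 0.11 in wild type (adjusted p = 3.74e-06 and 9.69e-05). Hoxc9, which gives thoracic motor neurons their identity and represses forelimb-level Hox genes there, fell by 0.56 ± 0.13 in Olig2cre/DA-Cat and by 0.65 ± 0.13 in wild type (adjusted p = 0.00315 and 0.00122). Hoxa9, by contrast, had differences of -0.05 in Olig2cre/DA-Cat (95% interval -0.40 to 0.30) and -0.01 in wild type (-0.36 to 0.34), and its second probe set gave 0.10 and 0.15.

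In paralogue groups 10 to 13, 6 of 10 genes were lower at day 15 in Olig2cre/DA-Cat and 1 of 10 in wild type, with medians of -0.58 and -0.19 log2. Of all genes, 26.3% were lower in Olig2cre/DA-Cat and 23.6% in wild type. The gene called in both was Hoxd10, which with Hoxc10 and Hoxa10 gives lumbar motor neurons their identity. Hoxd10 read 8.35, 9.40 and 9.57 log2 in Olig2cre/DA-Cat at day 15 and 10.49, 10.85 and 10.65 at day 4. Wild-type cords read 8.92, 9.15 and 8.86 at day 15 and 10.10, 10.25 and 10.10 at day 4. All 6 day 15 arrays were below all 6 day 4 arrays, with differences of -1.56 ± 0.24 (2.95-fold) in Olig2cre/DA-Cat and -1.17 ± 0.24 (2.26-fold) in wild type (adjusted p = 0.00016 and 0.00155).

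Hoxc13, known for its role in hair and nails, read 5.11, 6.04 and 6.38 log2 in Olig2cre/DA-Cat at day 15 and 7.12, 7.62 and 7.11 at day 4. Wild-type cords read 5.88, 6.29 and 6.21 at day 15 and 6.87, 6.60 and 6.34 at day 4. The days were separated in both genotypes, by a wide margin in Olig2cre/DA-Cat and a narrow one in wild type. Its difference was -1.44 ± 0.27 in Olig2cre/DA-Cat (adjusted p = 0.000722) and -0.47 ± 0.27 in wild type (adjusted p = 0.182).

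The other 4 genes called in Olig2cre/DA-Cat but not in wild type had smaller differences. Hoxa10 gave -0.80 ± 0.24 log2 in Olig2cre/DA-Cat and -0.39 ± 0.24 in wild type (adjusted p = 0.0154 and 0.223). Hoxc10 gave -0.60 ± 0.20 in Olig2cre/DA-Cat and -0.27 ± 0.20 in wild type (adjusted p = 0.023 and 0.311). Hoxa11, which patterns the middle segment of the limb, gave -0.57 ± 0.12 in Olig2cre/DA-Cat and -0.23 ± 0.12 in wild type (adjusted p = 0.00197 and 0.152). Hoxd11, its paralogue and partner in the limb, gave -0.64 ± 0.19 in Olig2cre/DA-Cat and -0.15 ± 0.19 in wild type (adjusted p = 0.0162 and 0.587). For all of these genes the wild-type difference had the same sign and missed the threshold, and the genotypes were not shown to differ, as the test of the difference itself called none of the 33.

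That test compares the genotype effect at day 15 with the one at day 4, and 0.352% of all genes passed it. Among the Hox genes 0 were called by limma and 4 had an unadjusted p below 0.05. The smallest p values were those of Hoxb1 (-0.54 ± 0.14 log2, adjusted p = 0.169), Hoxb7 (0.36 ± 0.12, adjusted p = 0.355) and Hoxc13 (-0.96 ± 0.38, adjusted p = 0.428), of which Hoxb1 and Hoxb7 were near background. The intervals were wide for the lumbosacral genes, reaching -1.79 to -0.13 for Hoxc13, so a sizeable difference in either the day or the genotype effect could have been missed.

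The lumbosacral values varied between arrays of a group, and some of the calls depended on single arrays. Over the 6 lumbosacral genes clear of background, replicate 1 of Olig2cre/DA-Cat at day 15 deviated from its group mean by -0.61 log2 on average, with all 6 genes below it, whereas replicates 2 and 3 deviated by 0.25 and 0.36. The same array was 0.28 above its group over 10 genes of paralogue groups 4 to 8, with 8 of them above, and replicate 2 deviated by -0.21 with all 10 below. Its paralogue group 9 genes lay between these, at -0.25, and its groups 1 to 3 deviated by only 0.05. The deviation of this array thus ran from positive in groups 4 to 8 to negative at lumbosacral level. In wild type at day 15, replicate 1 also had its 6 lumbosacral genes below the group mean (-0.13 on average). It had 9 of 10 genes of groups 4 to 8 above that mean (0.09). In Olig2cre/DA-Cat at day 4, replicate 2 had 9 of 10 genes of groups 4 to 8 below its group mean (-0.19). It had 5 of 6 lumbosacral genes above that mean (0.15).

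**Figure D4:**
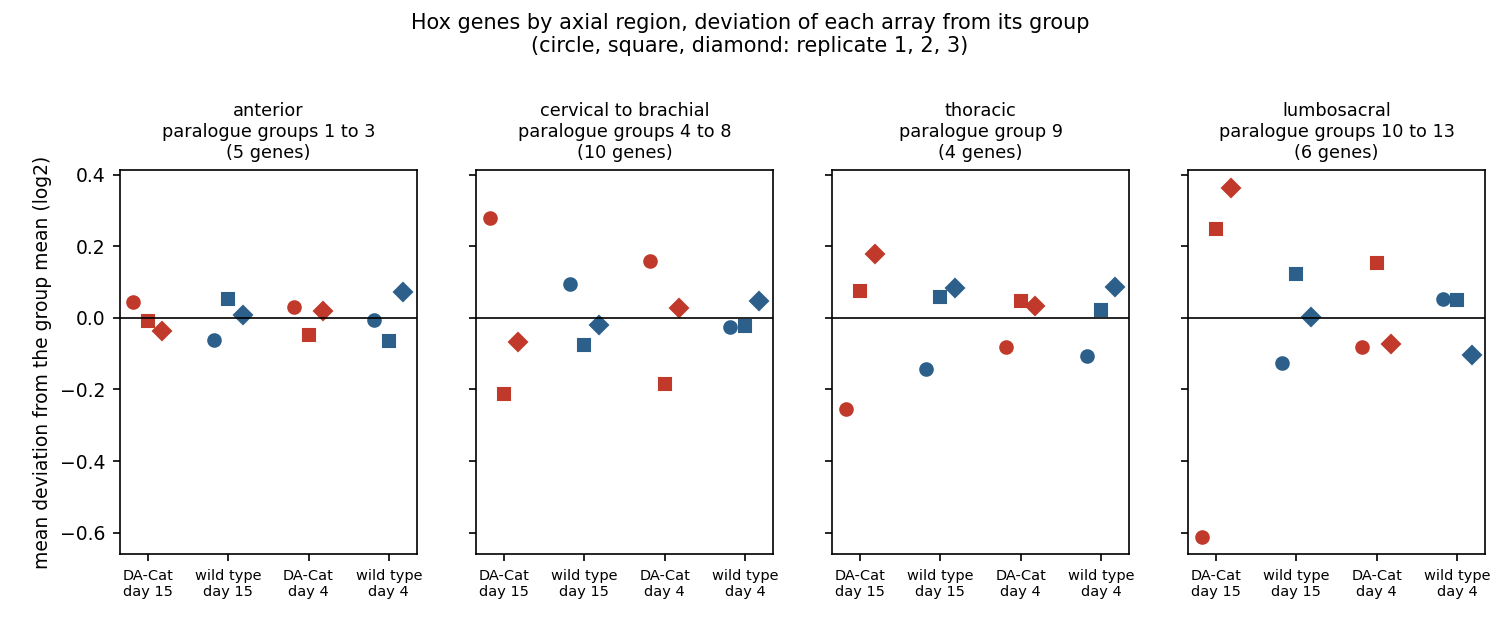
Mean deviation of each array from its group mean (log2) over the Hox genes clear of background, in 4 axial sets from paralogue groups 1 to 3 (left) to 10 to 13 (right), for Olig2cre/DA-Cat (red) and wild type (blue). Replicate 1 of Olig2cre/DA-Cat at day 15 (circle) is the highest point at cervical to brachial level (0.28) and the lowest at lumbosacral level (-0.61).

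Skeletal muscle RNA also differed between these arrays. The mean level of 12 muscle genes was 10.53, 5.26 and 8.54 log2 in Olig2cre/DA-Cat at day 15 and 6.46, 5.13 and 7.43 in wild type at day 15. At day 4 it was 5.61, 8.81 and 7.58 in Olig2cre/DA-Cat and 5.40, 8.10 and 6.30 in wild type. The array with the strongest lumbosacral deviation was thus the one richest in muscle RNA, while replicate 3 of its group, next in muscle, deviated the other way. With the muscle level as a covariate, 6 lumbosacral genes were called lower at day 15 in Olig2cre/DA-Cat (median -0.55 log2) and 1 in wild type (median -0.21). Beyond that fit, the part of muscle RNA in these results was not tested, and that of the cord levels taken was not tested at all. Without replicate 1 of Olig2cre/DA-Cat at day 15, 5 lumbosacral genes were called lower in Olig2cre/DA-Cat (median -0.33 log2) and 3 in wild type (median -0.19). Hoxc10 lost its Olig2cre/DA-Cat call without that array (adjusted p = 0.0746). Without replicate 2 of Olig2cre/DA-Cat at day 4, 4 were called lower and 1 higher in Olig2cre/DA-Cat, and Hoxa10 and Hoxc10 lost their calls (adjusted p = 0.0545 and 0.0991). Without replicate 1 of that group, Hoxd11 lost its call (adjusted p = 0.0528). Without wild-type replicate 3 at day 4, 2 lumbosacral genes were called lower in wild type. The Olig2cre/DA-Cat day calls of Hoxd10, Hoxc13 and Hoxa11 held in every alternative fit (20 of 20, 19 of 19 and 19 of 19).

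Between the genotypes, few Hox genes were called. At day 15, 1 of 33 was lower in Olig2cre/DA-Cat and 0 were higher, with 5 at an unadjusted p below 0.05 and a median difference of 0.11 log2 against 0.02 over all genes. At day 4, 1 was lower and 1 was higher, with 12 at an unadjusted p below 0.05 and a median of 0.17 against 0.03. Of all genes tested, 2.31% were called lower and 0.616% higher at day 15, and 1.81% lower and 1.30% higher at day 4. A single call among 33 genes is close to these background shares. The share of all genes with an unadjusted p below 0.05 was not computed. The unadjusted counts given for Hox genes and for other lists thus cannot be set against a background.

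The gene called lower on both days was Hoxd1. At day 15 the 3 Olig2cre/DA-Cat arrays (5.68, 5.96 and 6.03 log2) were all below the wild-type arrays (6.56, 6.41 and 6.89). At day 4 the Olig2cre/DA-Cat arrays (4.41, 4.34 and 4.66) were again all below wild type (5.23, 4.93 and 5.001). The difference was -0.73 ± 0.14 log2 at day 15 (1.66-fold lower, adjusted p = 0.0121) and -0.58 ± 0.14 at day 4 (adjusted p = 0.041). No fold is given for day 4, where the Olig2cre/DA-Cat mean (4.47) lay under the background edge and the wild-type mean (5.05) just over it. The change in this difference between the days was -0.15 ± 0.19 (adjusted p = 0.839). The day 15 call was lost when only the arrays of day 15 were fitted (adjusted p = 0.0786). The day 4 call rested on single arrays: it was lost without any 1 of the 6 day 4 arrays, or without wild-type replicate 1 at day 15, with adjusted p between 0.052 and 0.165 and the difference still between -0.67 and -0.49. It was also lost after quantile normalisation (adjusted p = 0.0671) and with muscle RNA as a covariate (adjusted p = 0.0608).

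Markers of mature oligodendrocytes, the cells that make myelin, put the 4 groups in the same order as Hoxd1. The mean level of 9 such genes, among them Mbp, Mag, Mobp and Ermn, ranged from 12.10 to 12.44 log2 in Olig2cre/DA-Cat at day 15 and from 12.80 to 12.89 in wild type at day 15. At day 4 it ranged from 8.84 to 9.04 in Olig2cre/DA-Cat and from 11.15 to 11.34 in wild type. Of the 9, 7 were called lower in Olig2cre/DA-Cat at day 15 (median -0.56) and 8 at day 4 (median -2.53), and all 9 were called higher at day 15 than at day 4 in each genotype. Over all genes, 2.31% were lower in Olig2cre/DA-Cat at day 15 and 1.81% at day 4. Between the days, 21.8% of all genes were higher at day 15 in Olig2cre/DA-Cat and 21.3% in wild type. The genotype effect on the markers changed between the days. Of the 9, 8 were called higher for the effect at day 15 minus that at day 4 (median 1.96), where 0.352% of all genes were called in either direction. For Hoxd1 the same change was -0.15 and not called (adjusted p = 0.839). The order is not particular to these markers, as the group means of 9 astrocyte genes followed it too. At day 15 the astrocyte levels overlapped between genotypes (11.25 to 11.26 log2 in Olig2cre/DA-Cat and 11.23 to 11.31 in wild type). At day 4 they ranged from 10.65 to 10.78 in Olig2cre/DA-Cat and from 10.80 to 10.88 in wild type. The part of either cell type in the Hoxd1 result was not tested.

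Hoxb1 was the Hox gene called higher in Olig2cre/DA-Cat at day 4. It read 4.23, 3.92 and 4.25 log2 in Olig2cre/DA-Cat and 3.75, 3.80 and 3.66 in wild type. The groups did not overlap, but all 6 values were near background, and the difference of 0.39 ± 0.10 had an adjusted p of 0.0468. It was lost in 13 of 21 alternative fits. Among them were the fits without any single array except replicate 2 of Olig2cre/DA-Cat on either day and replicate 2 of wild type at day 15.

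**Figure D5:**
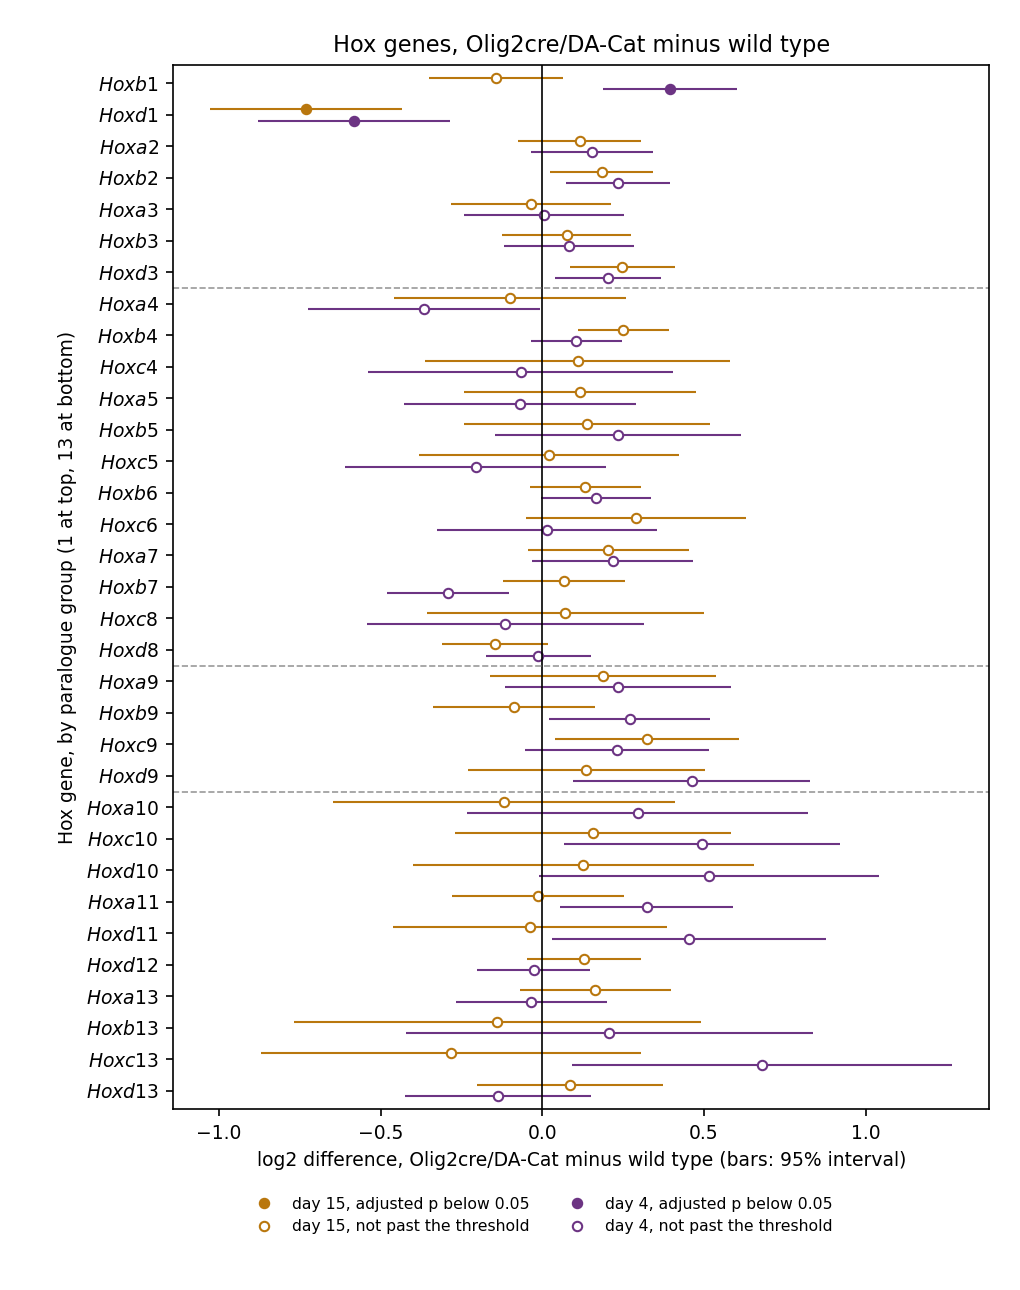
Difference in log2 signal between Olig2cre/DA-Cat and wild type for each Hox gene, with its 95% interval, at day 15 (orange) and day 4 (purple). Filled points passed an adjusted p of 0.05: Hoxd1 on both days (-0.73 and -0.58) and Hoxb1 at day 4 (0.39).

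Among the genes not called, the highest differences at day 4 were in the lumbosacral set. Hoxc13 gave 0.68 ± 0.27 log2 (adjusted p = 0.182), Hoxd10 gave 0.51 ± 0.24 (adjusted p = 0.251) and Hoxc10 gave 0.49 ± 0.20 (adjusted p = 0.182). Of the 10 lumbosacral genes 7 had a positive sign at day 4 (median 0.31), against 5 of 10 at day 15 (median 0.04). The lowest at day 4 after Hoxd1 were Hoxa4 (-0.36 ± 0.16, adjusted p = 0.235) and Hoxb7 (-0.29 ± 0.09, adjusted p = 0.0895). At day 15 the highest were Hoxc9 (0.32 ± 0.13, adjusted p = 0.232), Hoxc6 (0.29 ± 0.16, adjusted p = 0.38) and Hoxb4 (0.25 ± 0.06, adjusted p = 0.062). None of these reached the threshold in the main fit. Their intervals reached 1.27 at day 4 for Hoxc13 and 0.63 at day 15 for Hoxc6. With the arrays of day 4 alone, Hoxd9, Hoxd10 and Hoxd11 were called higher in Olig2cre/DA-Cat at that day. Without replicate 1 of Olig2cre/DA-Cat at day 15, Hoxd10 and Hoxd11 were called higher at day 4. No other fit called Hoxd9, Hoxd10 or Hoxd11 between the genotypes. At day 4 the Olig2cre/DA-Cat arrays of Hoxd10 and Hoxd11 were all above the wild-type arrays. Hoxb7 was called at day 4, and Hoxb4 at day 15, under at least 1 alternative.

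RNAs of the proteins that bind DNA together with Hox factors were mostly lower at day 15. Of 8 measured cofactors of the Pbx, Meis and Pknox families, 6 were lower at day 15 in Olig2cre/DA-Cat and 0 higher. In wild type 6 were lower and 1 higher. Of all genes, 26.3% were lower and 21.8% higher in Olig2cre/DA-Cat, and 23.6% and 21.3% in wild type. Pbx3 fell by 1.41 ± 0.06 log2 in Olig2cre/DA-Cat and by 1.07 ± 0.06 in wild type (adjusted p = 6.53e-09 and 7.28e-08). Meis1 fell by 1.23 ± 0.06 in Olig2cre/DA-Cat and by 1.10 ± 0.06 in wild type (adjusted p = 2.16e-08 and 7.02e-08). Meis2 fell by 1.13 in Olig2cre/DA-Cat and by 1.06 in wild type, and Pknox2 fell by 0.61 in both. The median over the 8 cofactors was -0.57 in Olig2cre/DA-Cat and -0.54 in wild type. No cofactor was called between the genotypes by limma at either day, with 3 at an unadjusted p below 0.05 at day 15 and 5 at day 4.

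Of 16 regulators upstream of Hox genes, 4 were lower and 3 higher at day 15 in Olig2cre/DA-Cat, where 26.3% of all genes were lower and 21.8% higher. In wild type 6 were lower and 2 higher, against 23.6% and 21.3% of all genes, so the counts show nothing particular to this list. Aldh1a1, an enzyme that makes retinoic acid, rose by 1.03 ± 0.15 log2 in Olig2cre/DA-Cat and by 1.79 ± 0.15 in wild type (adjusted p = 0.00012 and 1.45e-06). Aldh1a2, which catalyses the same step, was lower, with differences of -1.61 ± 0.28 in Olig2cre/DA-Cat and -1.74 ± 0.28 in wild type (adjusted p = 0.000358 and 0.000226). Aldh1a3, a further enzyme of that step, fell by 0.26 ± 0.09 in Olig2cre/DA-Cat and by 0.59 ± 0.09 in wild type (adjusted p = 0.0299 and 0.00016). Cyp26b1, which degrades retinoic acid, fell by 0.97 ± 0.11 in Olig2cre/DA-Cat and by 1.09 ± 0.11 in wild type (adjusted p = 1.76e-05 and 7.58e-06). The retinoid receptor gene Rxra rose by 0.78 in Olig2cre/DA-Cat and by 0.79 in wild type (adjusted p = 3.83e-05 and 4.11e-05). Enzymes of the same step thus differed in direction, and the list medians were -0.09 in Olig2cre/DA-Cat and -0.10 in wild type. Aldh1a1 was the only one of the 16 called between genotypes, higher in Olig2cre/DA-Cat at day 4 by 0.87 ± 0.15 (adjusted p = 0.0084).

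Of 22 Polycomb and Trithorax genes, 10 were lower and 4 higher at day 15 in Olig2cre/DA-Cat, and 7 lower and 7 higher in wild type. The shares over all genes were 26.3% lower and 21.8% higher in Olig2cre/DA-Cat, and 23.6% and 21.3% in wild type, and the list medians were -0.15 and -0.06 log2. Nothing particular to the list was shown. Rnf2, the catalytic subunit of Polycomb repressive complex 1, fell by 1.09 ± 0.08 log2 in Olig2cre/DA-Cat and by 0.89 ± 0.08 in wild type (adjusted p = 2.83e-07 and 1.89e-06). Wdr5, a subunit shared by Trithorax-type methyltransferase complexes, fell by 0.63 in Olig2cre/DA-Cat and by 0.58 in wild type (adjusted p = 2.03e-06 and 4.87e-06). Between the genotypes, Phc1 (-0.43 ± 0.08, adjusted p = 0.00963) and Phc2 (-0.33 ± 0.08, adjusted p = 0.0392), both subunits of Polycomb repressive complex 1, were lower in Olig2cre/DA-Cat at day 15. At day 4, 0 of the 22 were called by limma and 3 had an unadjusted p below 0.05.

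Genes that Hox factors act with or on in motor neurons were mostly lower at day 15. Of 17, 10 were lower and 1 higher at day 15 in Olig2cre/DA-Cat, and 11 lower and 0 higher in wild type. The median was -0.58 log2 in both. Of all genes, 26.3% were lower and 21.8% higher in Olig2cre/DA-Cat, and 23.6% and 21.3% in wild type. Aldh1a2 belongs both to these 17 and to the upstream regulators above. Lhx1, a factor of the lateral motor column and of interneurons, fell by 2.06 ± 0.11 in Olig2cre/DA-Cat and by 1.95 ± 0.11 in wild type (adjusted p = 3.05e-08 and 6.58e-08). Foxp1, the partner of Hox proteins in limb-level motor neurons, fell by 0.85 ± 0.07 in Olig2cre/DA-Cat and by 0.81 ± 0.07 in wild type (adjusted p = 6.35e-07 and 1.21e-06). Chodl, a marker of fast motor neurons, fell by 0.86 in Olig2cre/DA-Cat and by 0.87 in wild type. Of 7 general motor neuron markers, 1 was called lower in each genotype, with medians of -0.07 in Olig2cre/DA-Cat and -0.03 in wild type. The gene was Isl1, which also belongs to the 17 and gave -1.25 in Olig2cre/DA-Cat and -1.01 in wild type. The lists were not tested against each other. At day 4 Nkx6-1 (0.74 ± 0.13, adjusted p = 0.00824) and Lhx3 (0.29 ± 0.05, adjusted p = 0.0114) were higher in Olig2cre/DA-Cat, and at day 15 no gene of the 17 was called by limma, with 3 at an unadjusted p below 0.05.

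Of 15 genes that flank the Hox clusters, 6 were lower and 4 higher at day 15 in Olig2cre/DA-Cat, and 4 lower and 4 higher in wild type, with medians of -0.03 and -0.14 log2. These counts lie near the shares over all genes (26.3% lower and 21.8% higher in Olig2cre/DA-Cat, 23.6% and 21.3% in wild type). Skap1, beside HoxB, fell by 1.23 ± 0.12 in Olig2cre/DA-Cat and by 0.99 ± 0.12 in wild type (adjusted p = 3.2e-06 and 2.25e-05). Hibadh, near HoxA, rose by 0.63 ± 0.06 in Olig2cre/DA-Cat and by 0.46 ± 0.06 in wild type (adjusted p = 2.32e-06 and 3.5e-05). No neighbour was called between the genotypes by limma, with 2 at an unadjusted p below 0.05 at day 15 and 3 at day 4.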

How the data were processed

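RNA from 12 samples was measured on 12 one-colour Affymetrix 3' arrays labelled with biotin, per the labels, 3 in each of 4 groups of genotype and day. The deposited values are 1 log2 signal per probe set and array. The authors' background correction, probe summary and array normalisation are not given in the labels, and the range of the deposited values pointed to a log2 scale. The platform annotation pairs 34958 of 45101 probe sets with 1 symbol and 932 with several, and does not list 9211. The 1-symbol probe set with the highest mean stood for each of 18194 genes. A Hox gene had 1 to 4 such probe sets, 48 in all, and 3 that name several genes were left out.

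All 12 arrays were fitted with 1 mean per group in limma 3.58.1 (R 4.3.3: lmFit, contrasts.fit, eBayes; two-sided; 8 residual degrees of freedom), without a filter, and p-values were adjusted by Benjamini-Hochberg over all 18194 genes. The fit was tested on simulated data. The labels name no batch. Every Hox gene past the threshold is named, or the 3 with the smallest p where none passed, and of the rest those with the 3 highest or lowest differences; from other lists up to 4 genes with the smallest p were taken. The genotype check genes and the Hox genes given as not called by day were added afterwards. The Hox members and all lists were chosen with earlier results of these data known. Promoters are from RefSeq (GRCm38.p6). Alternatives were the normalisation, a filter on dim genes, the probe set rule, variance settings, array weights, replicate number, muscle and sex covariates, arrays of 1 day, leaving out each array and, added after seeing the data, a replicate block within each day.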

Additional observations from a re-analysis of the deposited data

How the results depend on the processing

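The counts of Hox genes called between the days stayed within 1.5 times the values given under every alternative. When each array was left out in turn, they were 18 to 22 in Olig2cre/DA-Cat (21 with all arrays) and 15 to 19 in wild type (16 with all arrays). Without the dimmest 50% of genes, 14 were called in Olig2cre/DA-Cat and 12 in wild type. Only 17 Hox genes were tested there, so these 2 counts are not like the others. The test of the difference between days called 0 Hox genes throughout, and 45 to 87 of all genes without single arrays. The genotype counts are small and moved. At day 15 the count of 1 became 0 without the dimmest 50% of genes, where Hoxd1 was not tested, 2 with array weights, 3 with Eif2s3y as a covariate, 0 with the arrays of day 15 alone, and 1 to 2 without single arrays. At day 4 the count of 2 became 1 after quantile normalisation, 1 without the dimmest 50% of genes (Hoxb2, adjusted p = 0.0488, with Hoxd1 and Hoxb1 not tested), 4 with array weights, 0 with the muscle level as a covariate, 4 with the arrays of day 4 alone, and 0 to 3 without single arrays. Over all genes, the day 15 genotype count of 533 ranged from 292 to 935 without single arrays and the day 4 count of 567 ranged from 260 to 752. With array weights the all-gene count was 684 at day 15 and 2164 at day 4. At day 15 it was 930 with Eif2s3y as a covariate and 136 with the arrays of day 15 alone. At day 4 it was 483 with the muscle level as a covariate and 648 with the arrays of day 4 alone. With the replicate number as a block, 1 Hox gene was called between genotypes at day 4 and 1 at day 15, 23 between days in Olig2cre/DA-Cat, 17 in wild type and 0 for the difference. The sample titles do not state that the numbers pair samples, and the main fit did not take them to do so. Of 18 same-numbered pairs, 5 had correlated deviations over 0.1 (range -0.34 to 0.30). The first sample of a pair correlated best with its own number in 9 of 18. These 18 include pairs across days, which cannot decide whether samples of 1 day were paired. Within a day the 6 pairs across genotypes were all positively correlated (0.02 to 0.30), 4 of them over 0.1, and the first sample correlated best with its own number in 5 of 6, as a hint from the data only. A replicate block within each day, chosen after seeing the data, called 1 Hox gene between genotypes at day 4 (Hoxd1, adjusted p = 0.0455), 1 at day 15 (Hoxd1, adjusted p = 0.0227) and 0 for the difference. No called Hox gene changed sign, while 9 of 31 not called between genotypes at day 4, 18 of 32 at day 15, 2 of 12 not called between days in Olig2cre/DA-Cat, 7 of 17 in wild type and 13 of 33 for the difference did so under at least 1 alternative. The cause of the moved counts was not tested. Genes near background have no reliable fold, and 3 arrays per group limit what small differences can be seen.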

Other observations

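Other cell types of the cord were read from marker lists on the same arrays. Microglia and macrophage genes were higher at day 15 (7 of 9 called in Olig2cre/DA-Cat, 9 of 9 in wild type), and none was called between genotypes by limma, with 0 at an unadjusted p below 0.05 at day 15 and 4 at day 4. Of 9 astrocyte genes 5 were higher and 3 lower at day 15 in each genotype. Of 16 neuronal genes 6 were higher and 5 lower at day 15 in Olig2cre/DA-Cat, and 5 higher and 9 lower in wild type. Of 8 oligodendrocyte precursor genes 2 were lower in Olig2cre/DA-Cat at day 15 and 5 at day 4. Of 8 genes of meninges and fibroblasts 3 were lower at day 15 in Olig2cre/DA-Cat and 5 in wild type. Between the days, 26.3% of all genes were lower and 21.8% higher in Olig2cre/DA-Cat, and 23.6% and 21.3% in wild type. Between the genotypes, 2.31% of all genes were lower in Olig2cre/DA-Cat at day 15 and 1.81% at day 4. The marker lists were not tested against these shares.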
